A study of Mus musculus with 11 samples.

Results

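The Vax2 and Vax2os locus of the mouse was described through the non-coding features listed for it, that is, all features on chromosome 6 that overlap positions 83660000 to 83780000 (mm10). There were 4 such features among 36097, and 3 of them lie inside Vax2os. Total RNA depleted of polyadenylated transcripts was sequenced in stranded 50-bp reads from retina of mice at postnatal day 21, in 6 libraries labelled Nrl knock-out and 5 labelled wild-type. The labels give no strain, sex or design of the knockout allele, and replicates carry a number but no animal. All p-values therefore rest on the scatter among libraries, part of which may be technical. The comparison asks which non-coding transcripts of the retina differ when Nrl is deficient.

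Nrl encodes a leucine zipper transcription factor needed to make rods, and without it the photoreceptors are known to take on cone character. Vax2 encodes a homeodomain transcription factor of the ventral eye. It patterns the dorsoventral axis of the developing retina and takes part in setting the gradient of cone opsins. Vax2os is a long non-coding RNA transcribed from the strand opposite to Vax2, and in mouse it has been studied in photoreceptor progenitors of the ventral retina.

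In the annotation of this build (GENCODE M21), Vax2os runs from 83692806 to 83712201 on the minus strand and Vax2 from 83711264 to 83738313 on the plus strand. MSTRG.74898 (83698281 to 83701902, plus strand, 3622 bp) lies wholly inside Vax2os on the opposite strand, that is, on the strand of Vax2. Of its length, 48.2% is opposite to exon sequence of Vax2os, 1746 bp in the long last exon of the transcript Vax2os-203, and it ends 9361 bp before the Vax2 start. MSTRG.74902 (83705152 to 83707637, plus strand, 2486 bp) follows 3249 bp further on the same strand, opposite to intron sequence of Vax2os, and ends 3626 bp before Vax2. MSTRG.74899 (83699214 to 83700070, minus strand, 857 bp) is on the strand of Vax2os itself, in an intron of Vax2os-201 and past the end of Vax2os-203. All 857 bp of it are covered by MSTRG.74898 on the other strand. MSTRG.74916 (83778582 to 83779036, plus strand, 455 bp) is intergenic, 2768 bp from Tex261, which encodes a membrane protein of the early secretory pathway. No analysed feature carried the Ensembl identifier of Vax2os, and none overlapped the Vax2 gene, so the mRNA of Vax2 was not analysed here.

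**Figure D1:**
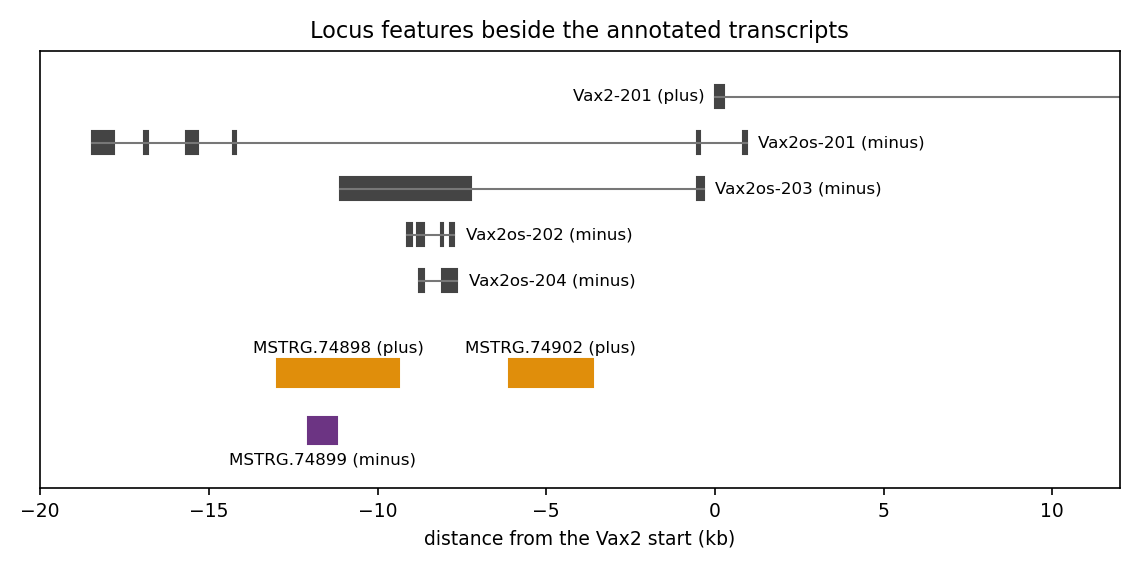
Map of the locus, with the distance from the annotated Vax2 start in kb on the horizontal axis. Upper rows show annotated transcripts (boxes, exons; lines, introns) and lower rows the plus-strand (orange) and minus-strand (purple) features; the 857 bp of MSTRG.74899 sit inside MSTRG.74898, and MSTRG.74916 lies beyond the right edge.

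Sequence is shown for a start site of Vax2os, in the first exon of Vax2os-203, and for the end of MSTRG.74898, the feature on which most of the results turn. RefSeq (GRCm38.p6) lists 2 start sites for Vax2os. The window of the start nearer to MSTRG.74898 is chr6:83710776-83711075 on the minus strand, 250 bases before to 50 after the start, all in lower case because none of the motifs searched was found. The other sequence is the last 300 bases of MSTRG.74898, chr6:83701603-83701902 on the plus strand, read from the GENCODE M21 sequence of Vax2os-203 and turned to the other strand. Capitals there mark a match to ATTAAA, a variant polyadenylation hexamer, near the middle of the 300 bases. Whether it serves as a signal for this end was not tested.
Vax2os promoter: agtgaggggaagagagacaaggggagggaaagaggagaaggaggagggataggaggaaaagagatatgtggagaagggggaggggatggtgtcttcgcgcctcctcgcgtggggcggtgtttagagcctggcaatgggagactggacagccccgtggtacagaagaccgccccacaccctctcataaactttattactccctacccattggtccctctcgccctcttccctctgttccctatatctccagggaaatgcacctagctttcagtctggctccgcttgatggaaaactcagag
MSTRG.74898 end: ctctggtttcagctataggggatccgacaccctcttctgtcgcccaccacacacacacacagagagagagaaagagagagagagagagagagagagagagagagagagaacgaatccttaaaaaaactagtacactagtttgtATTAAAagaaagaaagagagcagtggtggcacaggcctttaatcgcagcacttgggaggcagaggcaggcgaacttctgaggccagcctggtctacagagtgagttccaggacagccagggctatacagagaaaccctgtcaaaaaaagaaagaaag

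The promoter was searched on both strands for TAATCC (the core bound by CRX-type homeodomain factors), TGCTGA (a half-site of MAF-type factors such as NRL) and TAATTA (a core of other homeodomain factors). None of the 3 was present in it or in the window of the other Vax2os start, whereas 7.06%, 19.5% and 5.29% of the 32851 listed promoter windows hold them. The absence says only that these letters are not in these 300 bases. ATTAAA occurred 1 time in the end of MSTRG.74898 and AATAAA 0 times. In the last 300 bases of 28145 annotated non-coding transcripts the shares with ATTAAA and AATAAA were 15.8% and 30.4%. The closing bases of MSTRG.74898 read like a B1 element, a short interspersed repeat with many copies in the mouse genome, and the sources used here do not say how reads that match several places were counted.

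Values are counts normalised by the authors with DESeq2. The reads behind them, recovered as whole multiples of what 1 read is worth, numbered 3374221 to 4876429 per knockout library and 3238184 to 4150460 per wild-type library, counting only reads in listed features. For knockout 2 and wild-type 5, where 1 read is worth about 1.01 normalised counts, the read numbers given come from the same division, but these libraries did not enter the count tests. Up to 3 reads remain possible behind a count of 0, worth between 2.28 and 4.11 normalised counts across the libraries. Such floors, and all intervals given for counts, cover counting error only. Across tested features the log2 values of pairs of libraries correlated at 0.890 to 0.941 within knockout, 0.880 to 0.941 within wild-type and 0.672 to 0.745 between groups. No feature for the Nrl transcript itself entered this check. MSTRG.28375, which overlaps Nrl on the opposite strand, held 0.126 ± 0.310 normalised counts in knockout (SD, n = 6) and 42.1 ± 9.42 in wild-type (SD, n = 5), with no overlap between the groups. Knockout minus wild-type differences were tested with limma on log2(normalised count + 1), with Benjamini-Hochberg adjustment over the 21395 features with a mean of at least 5. That scale understates changes of low features. An adjusted p below 0.05 was a call.

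The 3 features inside Vax2os were much lower in knockout on both strands, and the intergenic feature was not called. All 4 features passed the filter on low values, and 3 were lower and 0 higher. Of all tested features 28.1% were called, 12.6% as lower and 15.6% as higher. For the same 3 the groups did not overlap, with knockout the lower group. Of all tested features 20.2% had groups that did not overlap, and 9.13% had them with knockout lower. In bulk retina, fewer cells of a type and less RNA per cell cannot be told apart.

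MSTRG.74898, opposite to Vax2os, was the most abundant feature of the locus in wild-type. In knockout its lowest, median and highest values were 3.91, 5.15 and 7.47 normalised counts, against 2810, 2050, 1940, 1994 and 1791 in the wild-type libraries. The groups stood far apart, and the knockout libraries held 4 to 9 reads each. Means were 5.32 ± 1.36 in knockout (SD, n = 6) and 2117 ± 399 in wild-type (SD, n = 5), so the level in knockout was 0.251% of that in wild-type. On the log2 scale this is a difference of -8.40 with SE 0.19 (adjusted p = 3.57e-21 by limma), lower in 6 of 6 knockout libraries. The p from the exact permutation test, two-sided, was 0.00216, which is the smallest that the 462 splits of these libraries allow. In the 9 libraries whose reads entered count tests there were 29 reads in 5 knockout libraries and 8379 in 4 wild-type libraries, which is 411 times as many in wild-type per unit of scaled depth (exact 95% interval 286 to 614). By mean level in wild-type it ranked 165 of all 36097 features, and by size of fall 5 of the 21395 tested.

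MSTRG.74902, the next feature along the same strand, had the same shape at a lower level. Its lowest, median and highest values in knockout were 0, 1.35 and 7.81 normalised counts, against 370, 245, 254, 242 and 255 in wild-type. In knockout 1, 2, 3, 4 and 5 it held 1, 1, 2, 0 and 3 reads, all at or under the floor of 3 reads. Knockout 6 held 8 reads. Means were 2.30 ± 2.80 in knockout (SD, n = 6) and 273 ± 54.6 in wild-type (SD, n = 5), a log2 difference of -6.70 (SE 0.36, limma adjusted p = 5.01e-14). Without knockout 6 the knockout mean was 1.20 ± 0.847 (SD, n = 5), which moved the wild-type over knockout ratio of means to 228, against 119 with it.

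MSTRG.74899, on the strand of Vax2os, was lower in knockout too, but by less. In knockout its lowest, median and highest values were 0.830, 2.96 and 6.06 normalised counts, against 72.7, 53.6, 56.6, 43.5 and 75.7 in wild-type. The groups did not overlap, and 3 of 6 knockout libraries were at or under the floor. Means were 3.22 ± 1.94 in knockout (SD, n = 6) and 60.4 ± 13.5 in wild-type (SD, n = 5), a log2 difference of -3.97 (SE 0.33, limma adjusted p = 2.01e-10). The exact permutation p was 0.00216 for this feature and for MSTRG.74902. With a pseudocount of 5 the log2 differences were -7.68 for MSTRG.74898, -5.30 for MSTRG.74902 and -3.00 for MSTRG.74899, and all 3 remained called by limma.

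MSTRG.74916, about 67.5 kb downstream of the Vax2 start, overlapped between the groups and was not called. Its lowest, median and highest values in knockout were 9.36, 12.7 and 22.2 normalised counts, against 17.8, 16.0, 13.9, 13.5 and 19.2 in wild-type, and the knockout range enclosed the wild-type one. Means were 13.9 ± 5.12 in knockout (SD, n = 6) and 16.1 ± 2.43 in wild-type (SD, n = 5). The log2 difference was -0.25 (SE 0.28), with limma adjusted p = 0.571 and an exact permutation p of 0.286. It rests on 9 to 22 reads per knockout library and 13 to 19 per wild-type library.

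**Figure D2:**
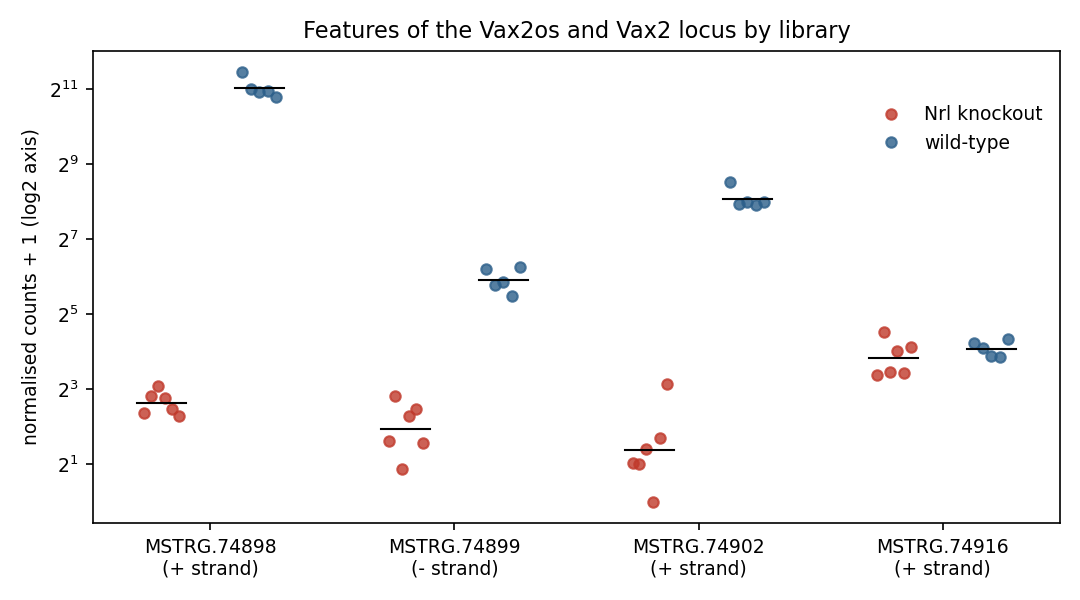
Normalised counts plus 1 (log2 axis) of the 4 features in each of 6 Nrl knockout (red) and 5 wild-type (blue) libraries; lines are means on the log2 scale. The 3 features inside Vax2os do not overlap between groups, at 0 to 7.81 normalised counts in knockout and 43.5 to 2810 in wild-type, while MSTRG.74916 overlaps.

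In the authors' deposited table the log2 fold changes, knockout over wild-type, are -8.63 for MSTRG.74898 (SE 0.30), -6.89 for MSTRG.74902 (SE 0.42), -4.23 for MSTRG.74899 (SE 0.40) and -0.22 for MSTRG.74916 (SE 0.34). The table gives the last an adjusted p of 0.756 and the other 3 adjusted p-values of at most 1.01e-24.

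The order of the features by level was not the same in the groups. In knockout, normalised counts per kb of feature length averaged 30.5 ± 11.2 for MSTRG.74916, 3.76 ± 2.26 for MSTRG.74899, 1.47 ± 0.376 for MSTRG.74898 and 0.925 ± 1.13 for MSTRG.74902 (SD, n = 6). The ranges of the last 3 overlapped in knockout, so their order there is not resolved. In wild-type, MSTRG.74898 was first with 584 ± 110 per kb, then MSTRG.74902 with 110 ± 21.9, MSTRG.74899 with 70.5 ± 15.7 and MSTRG.74916 with 35.4 ± 5.35 (SD, n = 5). No neighbours in the wild-type order overlapped: MSTRG.74902 ranged over 97.3 to 149, MSTRG.74899 over 50.8 to 88.3 and MSTRG.74916 over 29.8 to 42.1 per kb.

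The changes also differed in size between features, as tested on the log2 ratio of MSTRG.74898 to each of the others within a library, over 3 pairs. Relative to MSTRG.74916 the change of MSTRG.74898 was -8.14 on the log2 scale, and relative to MSTRG.74899 it was -4.42 (exact permutation p adjusted over the 3 pairs = 0.00325 for both). Relative to MSTRG.74902 it was -1.70 (exact permutation adjusted p = 0.00433), and with a pseudocount of 0.5 in place of 1 it was -1.42 and no longer past the threshold (exact permutation adjusted p = 0.0519). Since MSTRG.74902 was near the floor in knockout, the last difference rests on a few reads.

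Within wild-type the plus-strand pair kept a narrow ratio. MSTRG.74902 held 52.3% ± 74.1 of the normalised counts of MSTRG.74898 in knockout (SD, n = 6), with a range of 0% to 200%, and 12.9% ± 0.933 in wild-type (SD, n = 5), with a range of 11.9% to 14.3%. The knockout values are ratios of 0 to 8 reads to 4 to 9 reads per library.

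The share of reads on the Vax2os strand was larger in knockout. Over the 3 features inside Vax2os, the minus strand took 29.6% ± 15.4 of normalised counts in knockout (SD, n = 6) and 2.50% ± 0.633 in wild-type (SD, n = 5). The ranges, 8.33% to 46.2% in knockout and 1.91% to 3.57% in wild-type, did not overlap, with a difference of 27.1 percentage points (exact two-sided permutation p = 0.00649). This is a share of 7 to 15 reads per knockout library against 2103 to 2496 per wild-type library. The share largely restates that the plus-strand features fell more than MSTRG.74899, as given above, and is no separate result. In knockout 3, the library with the lowest knockout share, 1 of 12 reads was on the minus strand, a Wilson 95% interval of 1.49% to 35.4% that includes the wild-type range.

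**Figure D3:**
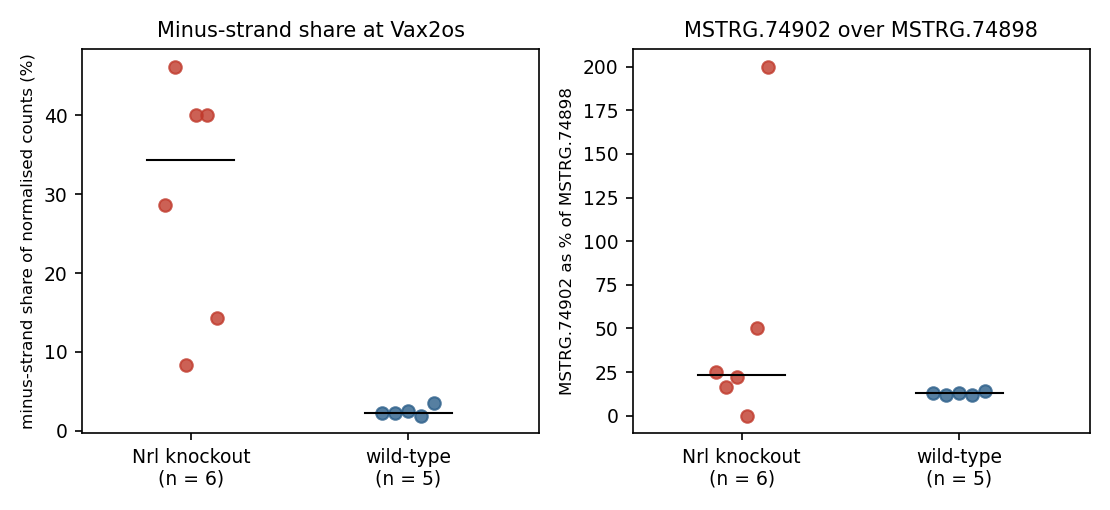
Left, minus-strand share (%) of the normalised counts of the 3 features inside Vax2os; right, MSTRG.74902 as % of MSTRG.74898; points are 6 Nrl knockout and 5 wild-type libraries, lines are medians. Knockout libraries spread over 8.33% to 46.2% and 0% to 200%, and wild-type libraries stay within 1.91% to 3.57% and 11.9% to 14.3%.

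The reads were stranded, but the sources used here do not say whether counting used strand. MSTRG.74899 lies wholly under MSTRG.74898 and could share reads with it if strand was not used. In knockout 2 and in knockout 5 the values of both features came to 6 reads. In the other knockout libraries MSTRG.74898 held more than MSTRG.74899, up to 9 reads against 1 in knockout 3. In wild-type the reads were 1775 to 2179 for MSTRG.74898 and 45 to 75 for MSTRG.74899. There MSTRG.74899 held 2.18% to 4.23% of the normalised counts of MSTRG.74898. Whether part of its reads came from plus-strand RNA was not tested, so its fall may not be separate from that of MSTRG.74898. Over the whole table, 511 pairs of features were nested on opposite strands, and in 23 of them the inner feature had the higher mean.

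Beyond the window, the neighbours moved in both directions. Of 27 features listed within 1 Mb of either edge, 18 were tested: 4 were higher, 4 lower and 10 not called, where 15.6% of all tested features were called higher and 12.6% lower, and their median log2 difference was -0.11, beside -0.02 over all tested features. The most changed was MSTRG.74884 (chromosome 6, 83435510 to 83436173), opposite to Tet3, which encodes an enzyme that oxidises methylated cytosine. It averaged 7.75 ± 4.63 normalised counts in knockout (SD, n = 6) and 117 ± 29.8 in wild-type (SD, n = 5), a log2 difference of -3.89 (limma adjusted p = 2.29e-10). The intergenic MSTRG.74938, 287 kb beyond the Vax2 start and in wild-type between the plus-strand features of the locus in level, held 918 ± 139 in knockout (SD, n = 6) and 900 ± 147 in wild-type (SD, n = 5) and was not called (limma adjusted p = 0.921).

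MSTRG.74916 is the first of a row of 5 intergenic plus-strand features that runs past the edge of the window. MSTRG.74917, just outside it, held 9.70 ± 3.58 in knockout and 15.7 ± 4.50 in wild-type and was not called. MSTRG.74918 held 18.5 ± 2.65 in knockout and 34.0 ± 12.6 in wild-type, and MSTRG.74919 held 7.98 ± 3.93 and 15.8 ± 3.31 in the same groups; both were called lower (limma adjusted p = 0.0220 and 0.0181). MSTRG.74921, last in the row, held 8.73 ± 3.57 in knockout and 7.17 ± 1.78 in wild-type and was not called.

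The authors' deposited table places the locus in a chromosomal domain of 12 features and lists the mRNAs of Cd207, Tet3 and Vax2 as lower in that domain and none as higher. Cd207 encodes langerin, a lectin of Langerhans cells. Of all 2920 domains 21.0% list at least 1 lower mRNA. Of the 8 features of the domain outside the window, 6 were tested, of which 3 were lower and 0 higher, beside 12.6% and 15.6% of all tested features, namely those at Tet3 and the pair named above.

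**Figure D4:**
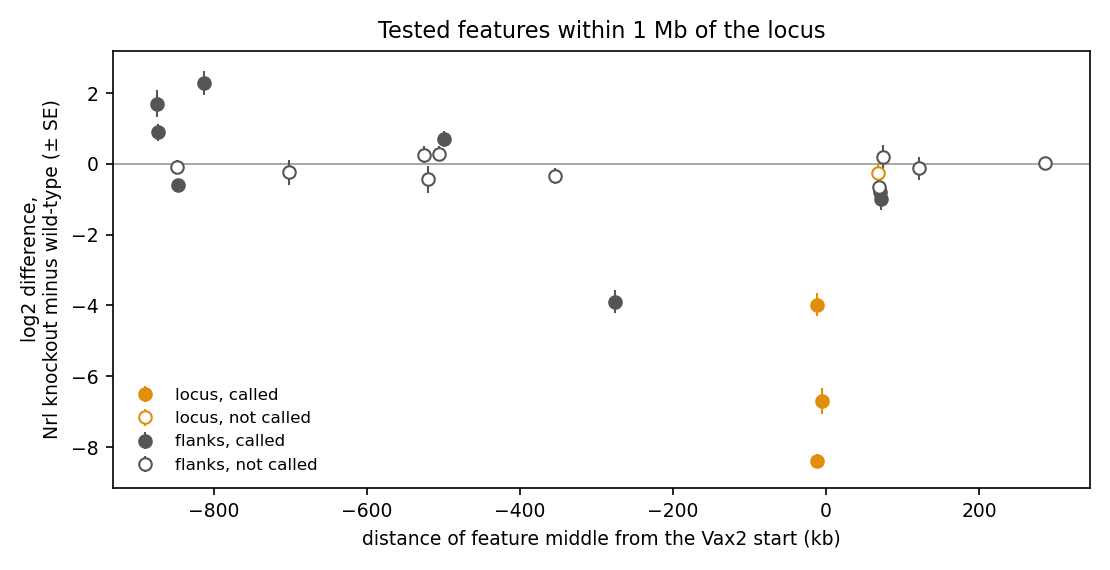
Log2 difference (Nrl knockout minus wild-type, ± SE) of tested features against the distance of their middle from the Vax2 start in kb; orange, the 4 features of the locus; grey, the 18 tested features within 1 Mb of it; filled, called. The 3 features inside Vax2os lie at -8.40, -6.70 and -3.97, and the feature opposite to Tet3 at -3.89, apart from the others.

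Features at genes of dorsoventral eye patterning and cone opsin control, Vax2 among them, gave a list for comparison. Of 34 names, 33 are in the annotation, 8 had a listed feature and 5 a tested one. Tested were 11 of 18 features, all opposite to their gene. Of these 6 were higher, 0 lower and 5 not called, and their median log2 difference was 1.32, beside -0.02 over all tested features, of which 15.6% were called higher. The 6 that rose lie at Opn1sw, Thrb and Rxrg, genes of cones that are also on the cone marker list: the short-wavelength opsin, the thyroid hormone receptor and the retinoid X receptor that regulate opsin choice. At Opn1sw, MSTRG.72793 held 49.0 ± 10.4 normalised counts in knockout (SD, n = 6) and 0.984 ± 1.38 in wild-type (SD, n = 5), a log2 difference of 4.90, and the log2 difference of MSTRG.72794 was 4.54. MSTRG.5946 at Rxrg had 2.68 and MSTRG.26903 at Thrb 2.31 as log2 differences, and the limma adjusted p was at most 2.43e-05 for these 4. Neither the 4 features at Nr2f1 and Pax6 nor 1 of the 4 at Thrb was called. MSTRG.25457 at Nr2f1, a nuclear receptor, held 368 ± 36.2 in knockout and 425 ± 63.8 in wild-type. At the eye regulator Pax6, MSTRG.50817 held 74.6 ± 18.0 in knockout and 94.3 ± 38.0 in wild-type, and MSTRG.50819 held 41.7 ± 13.0 and 40.2 ± 23.3 in the same groups.

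At other long non-coding RNA genes of the retina, 1 feature per gene, the one of highest mean, was compared, out of 17 listed at Otx2os1, 44 at Sox2ot and 1 at Meg3. The feature at Otx2os1, the opposite-strand gene beside Otx2, held 5451 ± 1345 in knockout (SD, n = 6) and 3149 ± 440 in wild-type (SD, n = 5), a log2 difference of 0.77 (limma adjusted p = 4.67e-04). The one at Meg3, an imprinted gene, held 350 ± 79.3 in knockout and 468 ± 107 in wild-type and the one at Sox2ot 21.0 ± 5.36 and 22.4 ± 3.44 in the same groups, and both were not called. The change of MSTRG.74898 relative to each of these 3 features was -9.17, -7.98 and -8.28 on the log2 scale (exact permutation p adjusted over the 3 = 0.00216). That p is the smallest that the 462 splits allow. It restates the fall of MSTRG.74898, which was already known, and adds nothing about the 3 genes.

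The tested features outside the locus whose log2 values were most like those of MSTRG.74898 over the 11 libraries were led by MSTRG.91064, opposite to Cep164, a gene of the ciliary base, with Pearson r = 0.999. The next, MSTRG.69172, MSTRG.61704, MSTRG.84881 and MSTRG.44693, overlap no annotated gene and had r of 0.998. Such values follow from the group difference, and are given as a description of 11 libraries that share their depth and scaling; MSTRG.91064 held 25.0 ± 4.95 in knockout (SD, n = 6) and 4348 ± 1277 in wild-type (SD, n = 5). After each group's mean was subtracted, MSTRG.82068 was the most like, with r = 0.957, followed by MSTRG.43991, MSTRG.87003, MSTRG.56375 and MSTRG.4786 with r of 0.926 to 0.883. All 5 lie on other chromosomes. The other members of the locus had r of -0.27 (MSTRG.74902), -0.04 (MSTRG.74899) and 0.12 (MSTRG.74916) with it, beside a median of 0.04 over all tested features outside the locus. These r pool both groups, and in knockout MSTRG.74902 held 0 to 8 reads per library and MSTRG.74898 4 to 9. Within wild-type, MSTRG.74902 kept to 11.9% to 14.3% of the counts of MSTRG.74898, so the pooled r does not show that this pair varies apart.

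Marker features moved with the groups in the same libraries, and their counts stand beside the 12.6% of all tested features called lower and the 15.6% called higher. At 13 of 16 rod genes 44 features were listed, and of the 38 tested 27 were lower and 4 higher. The summed level of the listed rod features was 359 to 568 normalised counts in knockout and 3046 to 5143 in wild-type. At 10 of 13 cone genes 45 features were listed, and of the 27 tested 18 were higher and 2 lower. The listed cone features summed to 1285 to 1989 in knockout and 378 to 422 in wild-type. The rod genes Nr2e3, Rcvrn and Rom1 and the cone genes Cnga3, Gnb3 and Opn1mw had no listed feature. Of 19 tested bipolar cell features 4 were higher and 1 lower, and of 10 at pigment epithelium genes 0 were higher and 1 lower. The part of these shifts in the result at Vax2os was not tested.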

How the data were processed

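The deposited table gives 1 signal column per library, counts normalised by the authors with DESeq2 on mm10, per the labels of the deposited table. The submitters' processing notes name mm10 and mm9 as builds and Cuffdiff, Cufflinks 2.2.1 and TopHat2 2.0.10 as tools, with no role; counting tool, strand use and filters are not stated there. The log2 fold changes, their standard errors, the test score and the p-values were deposited by the authors as results of their comparison, per the file headers. Of 36180 lines, 83 repeat a feature and were used 1 time. Deposited starts count from 0 (of 153 features with Ensembl names in GENCODE M21, 145 matched the annotated start after 1 was added and 0 before), so 1 was added.

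With a tolerance of 0.001, 100% of values were whole multiples of the smallest value of their library. limma 3.58.1 (R 4.3.3; eBayes with trend and robust) was the main test. edgeR 4.0.16 called 5733 and DESeq2 1.42.0 5468 of 21395 features in 9 libraries, using whole reads; knockout 2 and wild-type 5 did not enter, since a read there is worth 1.01 normalised counts, so that a step of 1 read is hard to tell from a step of 1. Exact permutation tests enumerated all splits. Alternatives were other pseudocounts, filters, scalings, tests, a replicate block and leaving out each library. The members and lists were chosen with earlier results of these data known, so they are no independent support. Named genes were all features of the locus, the features most like MSTRG.74898, and of the dorsoventral list the 4 most changed calls and the 3 uncalled features of highest mean; at comparison genes, the feature of highest mean (Six3os1 had no tested feature, and Miat, Rncr4, Gas5, Malat1 and Neat1 no listed one). The tests of the minus-strand share and against the comparison genes were added after the data were seen.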

Additional observations from a re-analysis of the deposited data

Results flagged for a closer look

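In wild-type 1, 2 features of the locus stood apart from the other wild-type libraries by Dixon's 95% criterion: MSTRG.74898 with 2810 normalised counts and MSTRG.74902 with 370. Without wild-type 1 the wild-type means were 1944 ± 112 and 249 ± 6.76 (SD, n = 4) and the log2 differences -8.29 and -6.58. With scaling to each library's reads in listed features neither value stood apart, and with TMM scaling only that of MSTRG.74902 did (383.0 scaled reads). In knockout 6, MSTRG.74902 stood apart with 7.81 normalised counts, which is 8 reads; it stood apart under both of these scalings too, and without it the log2 difference was -7.05. Chance flags about 1 in 20 groups, and 8 groups were examined.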

How the results depend on the processing

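The 3 calls inside Vax2os and their direction were the same under all 21 alternatives run for each, and MSTRG.74916 was uncalled in all 20 that tested it (a mean of at least 20 removed it). For MSTRG.74898 the log2 difference was -8.49 to -8.29 with 1 library left out and -8.72 to -7.68 otherwise; for MSTRG.74902 it was -7.05 to -6.42 and -7.10 to -5.30, and for MSTRG.74899 -4.15 to -3.76 and -4.39 to -3.00. The smallest falls of all 3 came with a pseudocount of 5. Whether the replicate numbers pair the libraries was not settled. Same-numbered deviations correlated at 0.00 to 0.29. For numbers 1 and 5 the knockout library was most like the wild-type library of its own number, and for 2, 3 and 4 it was not. With a replicate block the log2 difference of MSTRG.74898 was -8.33, with 3 features of the locus lower. Of all features the block called 6927, against 5704 without it in the same libraries (knockout 6 left out). The change relative to MSTRG.74902 was -1.42 with a pseudocount of 0.5 and lost its call, and -2.00 to -1.28 with 1 library left out; both features are near the floor in knockout. Of all features, 1722 were higher and 1628 lower with a mean of at least 20, where 8266 were tested, against 3327 and 2695. No scaling moved the median of all features by over 0.1.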
